A study of Mus musculus with 7 samples.

Results

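Genes of red blood cell formation and heme synthesis were followed in arthritic mouse ankles that had received a synthetic copy (mimic) of miR-17-5p, a microRNA. The set was a list of 36 named genes for globins, red cell surface and membrane skeleton proteins, erythroid regulators, iron uptake, heme synthesis enzymes and terminal maturation. Their Entrez numbers were looked up in the deposited table of 27179 genes, and 34 were found. The other 2, Hbb-bt and Ahsp, had no row under their own number, so their expression is not analysed here. Of the 34, 31 reached a mean of 1 FPKM (fragments counted per kilobase of gene, scaled to library size) over the libraries and entered the test. Hba-a2, Epb42 and Trim58 did not reach it and are described by their values alone.

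Red cells are made in the bone marrow from erythroid precursors under the control of erythropoietin and of the transcription factors Gata1, Tal1 and Klf1. As these cells mature they fill with hemoglobin, build a membrane skeleton of spectrin and ankyrin, take up iron through the transferrin receptor, and lose their nucleus and mitochondria. Heme, the iron-holding group of hemoglobin, is made in a chain of enzyme steps. The first is run by Alas2 in erythroid cells and by Alas1 elsewhere, and most later enzymes are present in nearly every cell type. A whole ankle holds bone with marrow, blood vessels, muscle, tendon and inflamed synovium, so all of these sources enter the same RNA sample.

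All ankles came from DBA1 mice in which collagen had been used to induce arthritis, and the skin was taken off before RNA was extracted. In the mimic group (n = 4, replicates 1, 2, 4 and 5) the joint was injected with miR-17-5p mimic in a lipoplex, a lipid carrier, and in the control group (n = 3, replicates 2, 3 and 5) with an irrelevant microRNA in the same kind of carrier. Both groups thus share the arthritis, the injection and the carrier, and neither an uninjected nor a healthy ankle is among the samples. Age, sex, dose, time after injection and whether ankles came from separate animals are not given in the labels, so each p-value reflects sample-to-sample spread, which may in part be technical. The 7 libraries held 27465276 to 31118975 assigned reads, so that 1 read equalled 0.0321 to 0.0364 FPKM in a gene 1 kilobase long. Values below are listed as control 2, 3 and 5, then mimic 1, 2, 4 and 5. In bulk tissue, fewer cells of a type and less RNA per cell cannot be told apart.

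Transcripts typical of red cells were present: Hbb-bs, Hba-a1, Alas2, Slc4a1, Rhd and Klf1 were each detected in every library. Klf1 held only 24 reads in control 5 and in mimic 5. These genes were listed because they are erythroid, so their detection is no test of the label. Most genes of the set had a higher mean in the mimic group, but for most the ankles of a group differed so widely that the groups overlapped. The log2 mean was higher in mimic ankles for 27 of the 31 genes tested (87.1%), against 48.3% of all 13418 genes tested, of which 51.7% were lower. No gene of the set passed limma's test at an adjusted p of 0.05 (Benjamini-Hochberg over all genes), where 0% of all genes passed. At an unadjusted p under 0.05 there were 8 of 31 (25.8%), all higher in mimic ankles: Ank1, Epor, Alad, Uros, Urod, Fech, Bpgm and Tmcc2. Of all genes tested, 7.48% were higher and 10.1% lower at that level. The groups did not overlap for 4 of 31 (12.9%), namely Uros, Urod, Bpgm and Tmcc2, all higher in mimic ankles, against 6.48% of all genes higher, 8.84% lower and 15.3% in either direction. The genes share the same 7 ankles and so are not independent of one another. The median log2 difference (mimic minus control, of FPKM + 0.5) over the 31 genes was 0.54, and over all genes tested it was -0.0063.

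**Figure D1:**
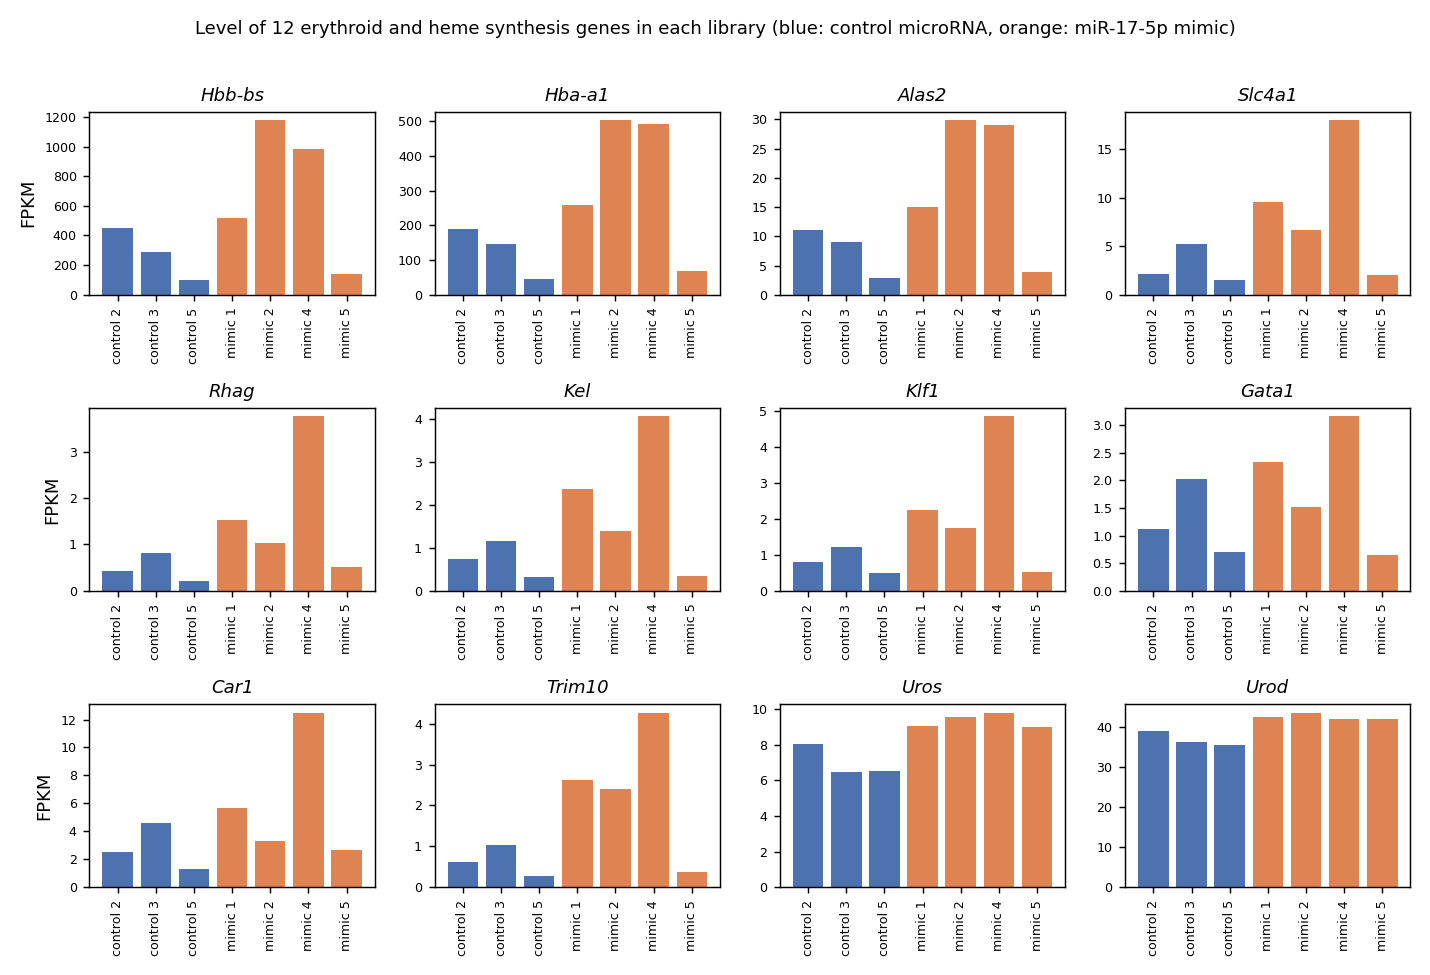
Expression of members of the erythroid and heme synthesis set in each library, in FPKM on a linear axis from 0 (1 panel a gene, 1 bar a library, with colour by group). Hbb-bs ran from 102 FPKM in control 5 to 1177 FPKM in mimic 2, whereas the 7 bars of Urod stood between 35.5 and 43.5 FPKM.

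Hemoglobin is built from alpha and beta globin chains. Hbb-bs, an adult beta globin gene (chr7:103826523-103827928, mm10, minus strand), stood at 450.5, 291 and 102 FPKM in control ankles and 516, 1177, 983 and 140.2 FPKM in mimic ankles. Mimic 2 and 4 were high, while control 5 and mimic 5 were low, and the groups overlapped. The means were 281 ± 175 FPKM (SD, n = 3) and 704 ± 467 FPKM (SD, n = 4), a log2 difference of 1.18 (SE 0.81, limma adjusted p = 0.462). Hba-a1, an adult alpha globin gene (chr11:32283672-32284486, plus strand), stood at 190.0, 145 and 45.8 FPKM in control ankles and 258, 502, 492 and 69.5 FPKM in mimic ankles. It ranked the 7 ankles in the same order as Hbb-bs, with a log2 difference of 1.25 (SE 0.78, limma adjusted p = 0.421). Single ankles moved these values: without control 5 the difference was 0.57 for Hbb-bs and 0.64 for Hba-a1, and without mimic 5 it was 1.83 and 1.88. Beta to alpha globin was nearly constant over the ankles, with ratios of FPKM of 2.37, 2.01 and 2.22 in control and 2.00, 2.34, 2.00 and 2.02 in mimic ankles. Both chains thus varied together from ankle to ankle.

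Hba-a2 (chr11:32296492-32297310) is the second copy of alpha globin, and it held 1, 1 and 0 reads in control ankles and 0, 4, 0 and 0 reads in mimic ankles. Its coding sequence differs from that of Hba-a1 at 1 of 429 positions, and their transcripts share an unbroken run of 415 bases. Most reads therefore fit both copies, how such reads were counted is not given in the sources used here, and the split between the copies is uncertain. A row under the number of Hbb-b1, another beta globin name, lies at chr7:103812528-103813923, the place of Hbb-bt in the RefSeq gene table. It is not a member by number and stood at 32.1, 20.1 and 7.62 FPKM in control ankles and 43.3, 88.5, 89.0 and 13.6 FPKM in mimic ankles, again with mimic 2 and 4 high. The reads were placed on a reference of another strain, and which beta globin alleles DBA1 mice carry is not given in the sources used here.

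Surface and membrane skeleton genes repeated the wide spread: all 7 tested had a higher mean in mimic ankles, with a median log2 difference of 0.89, and none passed the test. Slc4a1, the anion exchanger of the red cell membrane (chr11:102348820-102365281), stood at 2.17, 5.23 and 1.504 FPKM in control ankles and 9.62, 6.71, 18.0 and 2.07 FPKM in mimic ankles. Mimic 1, 2 and 4 were above every control ankle, and mimic 5 was below 2 of them. Its log2 difference was 1.29 (SE 0.66, limma adjusted p = 0.348). Rhag, the ammonia channel that carries the Rh antigens to the surface, stood at 0.424, 0.818 and 0.210 FPKM in control ankles and 1.52, 1.04, 3.76 and 0.520 FPKM in mimic ankles. Rhd, an Rh antigen, stood at 1.52, 1.78 and 0.857 FPKM and at 3.70, 2.59, 6.29 and 1.39 FPKM. For both, mimic 4 was highest, control 5 lowest, and mimic 5 lay among the control ankles. Kel, the Kell antigen, stood at 0.740, 1.17 and 0.322 FPKM in control ankles and 2.38, 1.39, 4.07 and 0.356 FPKM in mimic ankles. Ermap, the membrane protein of the Scianna blood group, stood at 0.752, 1.30 and 0.528 FPKM and at 2.32, 1.45, 4.22 and 0.689 FPKM. Both showed mimic 5 as the only mimic ankle within the control range. Epb42, a skeleton protein that binds the anion exchanger, was too low for the test, at 16, 44 and 11 reads in control ankles and 100, 68, 164 and 19 reads in mimic ankles. With the filter on low values removed, its log2 difference was 0.78 (SE 0.37, limma adjusted p = 0.401).

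Spectrin and ankyrin, the lattice of the membrane skeleton, did not follow the surface antigens from ankle to ankle. Sptb, beta spectrin, stood at 8.26, 4.69 and 1.79 FPKM in control ankles and 3.34, 10.2, 6.03 and 9.52 FPKM in mimic ankles. Ank1, ankyrin, stood at 3.02, 3.00 and 1.10 FPKM in control ankles and 2.60, 5.53, 4.13 and 6.77 FPKM in mimic ankles. Mimic 5, low for the surface antigens, was the highest ankle for Ank1 and the second highest for Sptb, and mimic 1 was low for both. The ratio of Sptb to Epb42 accordingly ran from 3.52 in mimic 1 to 52.9 in control 2, a range of 15.02-fold. Ank1 had a log2 difference of 0.89 (SE 0.37, limma adjusted p = 0.276) and Sptb 0.62 (SE 0.51, limma adjusted p = 0.539). Without control 5, the lowest ankle for both, these were 0.51 and 0.097, and without control 2 Sptb was at 1.07. Both genes are also transcribed in skeletal muscle. The summed FPKM of 10 skeletal muscle markers was 7002, 3383 and 1200 in control ankles and 2757, 8823, 4794 and 10400 in mimic ankles, led by Acta1 and Tnnt3, with all 10 higher in mean in mimic ankles. From high to low, the muscle sum ranked mimic 5, mimic 2, control 2, mimic 4, control 3, mimic 1 and control 5, and Sptb ranked the same except that mimic 2 came before mimic 5. The part of muscle in the Sptb and Ank1 values was not tested.

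**Figure D2:**
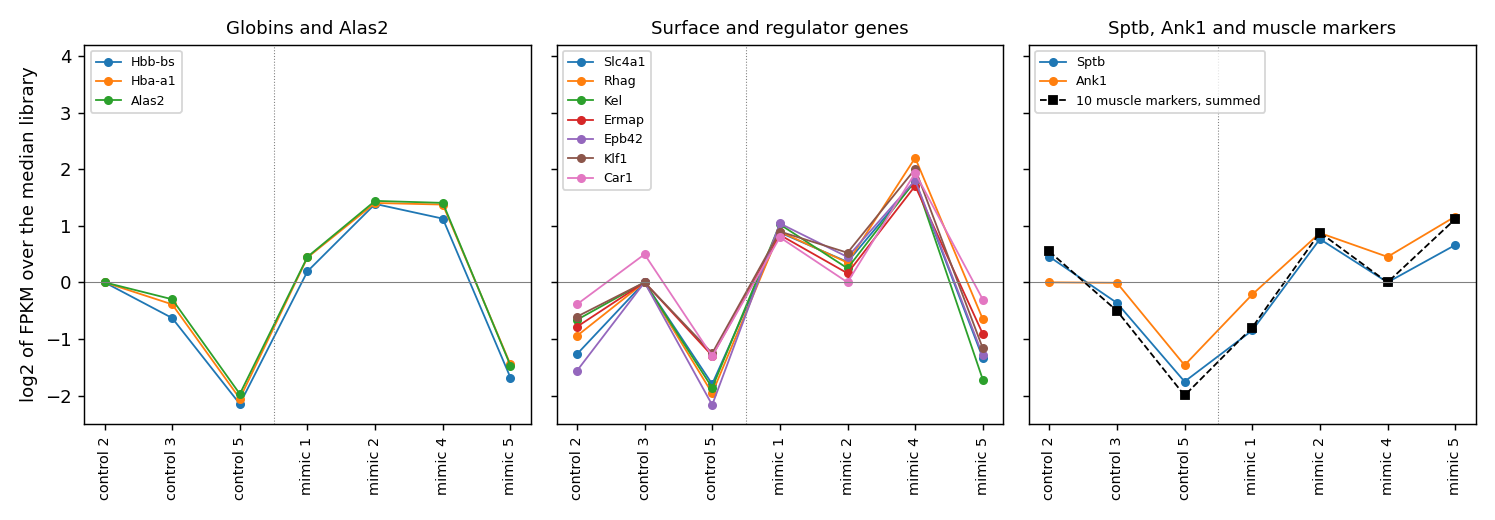
Level in each library as log2 of FPKM over the gene's median library, for globins and Alas2 (left), surface and regulator genes (middle), and Sptb, Ank1 and the sum of 10 muscle markers (right), with control libraries left of the dotted line. Mimic 5 lies low in the left and middle panels and high in the right panel.

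Regulators of erythroid transcription differed in how far they varied. Klf1, which switches on adult beta globin, stood at 0.795, 1.21 and 0.507 FPKM in control ankles and 2.25, 1.74, 4.85 and 0.539 FPKM in mimic ankles. Its order of ankles was that of Slc4a1, and its log2 difference was 0.89 (SE 0.50, limma adjusted p = 0.384). Gata1, the factor for red cells, megakaryocytes and mast cells, stood at 1.12, 2.01 and 0.700 FPKM in control ankles and 2.33, 1.51, 3.15 and 0.648 FPKM in mimic ankles. Its log2 difference of 0.38 (SE 0.42, limma adjusted p = 0.639) was below its error. Tal1, which also acts in endothelium and other blood cells, had a narrower range, from 3.17 FPKM in control 2 to 6.16 FPKM in mimic 4. Nfe2, shared by erythroid cells and megakaryocytes, was the only regulator of the 5 with a lower mean in mimic ankles, at 6.43, 11.6 and 8.75 FPKM in control and 8.98, 6.24, 9.75 and 3.94 FPKM in mimic ankles. Its log2 difference was -0.33 (SE 0.32, limma adjusted p = 0.597). Sums of 10 megakaryocyte and platelet markers were 139.0, 224 and 139 FPKM in control ankles and 157, 138, 217 and 100.3 FPKM in mimic ankles, so that mimic 5 was lowest for these and for Nfe2 alike, and their part in the Nfe2 values was not tested. Epor, the erythropoietin receptor, stood at 3.22, 2.21 and 1.68 FPKM in control ankles and 3.62, 3.79, 4.70 and 3.18 FPKM in mimic ankles. Here control 2 alone reached the mimic range, passing mimic 5 only. The log2 difference of Epor was 0.61 (SE 0.19, limma adjusted p = 0.209).

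Iron uptake genes had a median log2 difference of -0.24, with 1 of 3 higher and 2 lower in mean and none past the test. Tfrc, the transferrin receptor of red cell precursors and of dividing cells in general, stood at 25.7, 37.6 and 39.4 FPKM in control ankles and 33.1, 22.2, 27.0 and 31.3 FPKM in mimic ankles. Its highest ankle was control 5, the lowest ankle for the globins. Summed FPKM of 10 cell division genes was 134, 200.2 and 174 in control ankles and 111, 116, 137 and 108 in mimic ankles, and all 10 had a lower mean in mimic ankles, none past the test. Their part in the Tfrc values was not tested. Tfr2, a second transferrin receptor that senses iron in liver and erythroid cells, gave a log2 difference of -0.24 (SE 0.21, limma adjusted p = 0.556). Slc25a37, mitoferrin, which brings iron into mitochondria for heme, ranged only from 14.8 FPKM in mimic 5 to 23.2 FPKM in mimic 4.

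Heme synthesis split into its first enzyme and the rest. Alas2, the erythroid form of the first enzyme (chrX:150547417-150570622), stood at 11, 8.94 and 2.80 FPKM in control ankles and 15.04, 29.8, 29.1 and 3.97 FPKM in mimic ankles. It varied as the globins did, with means of 7.58 ± 4.27 FPKM (SD, n = 3) and 19.5 ± 12.4 FPKM (SD, n = 4). The log2 difference was 1.15 (SE 0.74, limma adjusted p = 0.434), 0.60 without control 5 and 1.76 without mimic 5. Its ratio to Hbb-bs stayed between 0.0244 and 0.0307 over the 7 ankles, a range of 1.26-fold.

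The later enzymes varied little, and 5 of these 6 had a higher mean in mimic ankles. Uros, which closes the porphyrin ring (chr7:133686330-133709295), stood at 8.02, 6.45 and 6.50 FPKM in control ankles and 9.04, 9.55, 9.80 and 8.97 FPKM in mimic ankles. All mimic ankles were above all control ankles, with means of 6.99 ± 0.89 FPKM (SD, n = 3) and 9.34 ± 0.40 FPKM (SD, n = 4). The log2 difference of 0.40 (SE 0.086) had the smallest p of the set (0.00208 unadjusted, limma adjusted p = 0.174). Without control 2, the control ankle nearest to the mimic group, it was 0.50 and passed the test (limma adjusted p = 0.0302). In that setting 318 of 13418 genes (2.37%) passed, 115 of them higher (0.857%), where none did with all 7 libraries.

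Urod, which trims the side chains of the ring, stood at 39.0, 36.3 and 35.5 FPKM in control ankles and 42.5, 43.5, 41.8 and 42.0 FPKM in mimic ankles. Here too the groups did not overlap, at a log2 difference of 0.20 (SE 0.054, limma adjusted p = 0.176). Alad, the second enzyme of the chain, stood at 41.9, 35.9 and 35.9 FPKM in control ankles and 39.5, 45.6, 47.1 and 45.2 FPKM in mimic ankles. Mimic 1 was below control 2, so the groups overlapped, and the log2 difference was 0.22 (SE 0.086, limma adjusted p = 0.254). Fech, which puts iron into the finished ring, stood at 27.4, 25.0 and 22.7 FPKM in control ankles and 25.9, 29.9, 30.2 and 29.3 FPKM in mimic ankles. It overlapped in the same way, at a log2 difference of 0.20 (SE 0.084, limma adjusted p = 0.276). Ppox, the last oxidation step, had a log2 difference of 0.16 (SE 0.089, limma adjusted p = 0.377). Cpox, the step before it, had one of -0.019 (SE 0.11, limma adjusted p = 0.936).

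**Figure D3:**
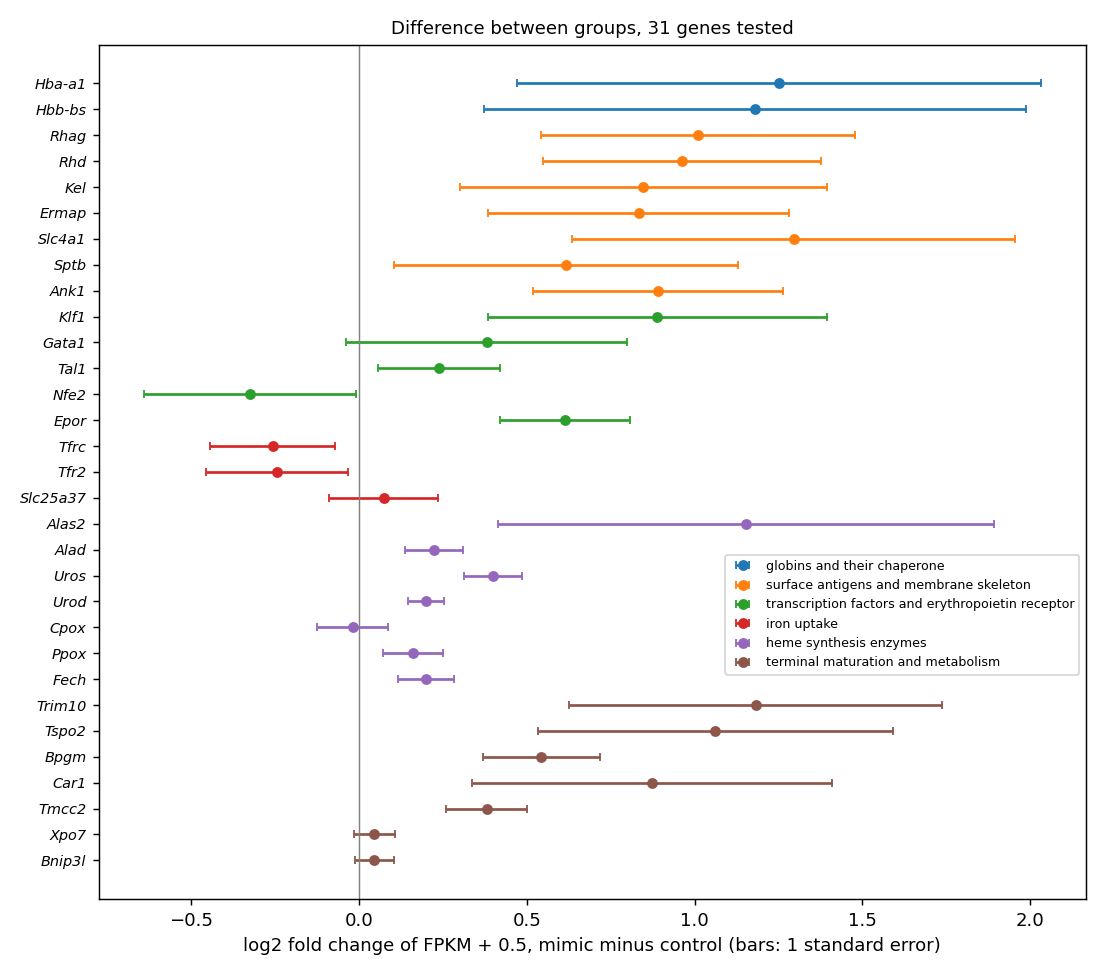
Log2 fold change of FPKM + 0.5, mimic minus control, for the 31 genes tested (points) with 1 standard error on each side (bars), coloured by role. The widest bars belong to the globins and Alas2 and the narrowest to Urod, Bnip3l and Xpo7, and no gene passed the test.

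All 7 terminal maturation genes tested had a higher mean in mimic ankles, with a median log2 difference of 0.54, and none passed the test. Bpgm, the enzyme that makes the bisphosphoglycerate with which red cells tune the oxygen affinity of hemoglobin, stood at 10.2, 10.1 and 7.06 FPKM in control ankles and 11.7, 15.7, 15.6 and 11.1 FPKM in mimic ankles. The groups did not overlap, with means of 9.14 ± 1.80 FPKM (SD, n = 3) and 13.5 ± 2.47 FPKM (SD, n = 4) and a log2 difference of 0.54 (SE 0.18, limma adjusted p = 0.213). Tmcc2, a transmembrane protein with coiled coils, stood at 8.16, 7.45 and 6.09 FPKM in control ankles and 8.96, 10.1, 10.8 and 8.36 FPKM in mimic ankles. It too did not overlap, at a log2 difference of 0.38 (SE 0.12, limma adjusted p = 0.210). In both genes mimic 5 was the lowest mimic ankle and thus nearest to the control group.

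Trim10, a ring finger protein needed for terminal erythroid differentiation, stood at 0.603, 1.02 and 0.275 FPKM in control ankles and 2.63, 2.40, 4.27 and 0.368 FPKM in mimic ankles. Tspo2, an erythroid relative of the mitochondrial translocator protein, stood at 0.543, 1.67 and 0.208 FPKM and at 2.54, 1.86, 3.94 and 0.626 FPKM. Car1, a carbonic anhydrase of red cells, stood at 2.496, 4.61 and 1.33 FPKM and at 5.68, 3.27, 12.5 and 2.65 FPKM. In each of the 3, mimic 4 was highest, control 5 lowest and mimic 5 inside the control range, which for Car1 also held mimic 2. Trim58, a ubiquitin ligase of late erythroblasts, was too low for the test, at 12, 19 and 5 reads in control ankles and 26, 13, 32 and 7 reads in mimic ankles. Xpo7, a nuclear exportin, ranged only from 4.17 to 4.64 FPKM, and Bnip3l, which clears mitochondria from reticulocytes, from 20.9 to 23.4 FPKM. Their log2 differences were 0.045 (SE 0.061) and 0.046 (SE 0.059), each below its error.

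Ankles of one group differed more for these genes, by the median, than for genes in general. The median log2 SD inside the control group was 0.392 for the 31 genes, against 0.134 for all genes tested. Inside the mimic group it was 0.532 against 0.109. The range over all 7 libraries, which also holds the difference between groups, had a median of 1.45 on the log2 scale, against 0.39. It was above 1 for 18 of 31 genes (58.1%), against 11.9% of all genes. A gap in the highest over lowest library lay between Nfe2 at 2.96-fold and Gata1 at 4.87-fold, and genes were described on each side of it, a division at 4-fold chosen after the values were seen. On the wide side were 17 genes, from 4.87- to 18.9-fold: Hba-a1, Hbb-bs, Rhag, Rhd, Kel, Ermap, Slc4a1, Epb42, Sptb, Ank1, Klf1, Gata1, Alas2, Trim10, Trim58, Tspo2 and Car1. Of these, 16 were lowest in control 5, and 12 were highest in mimic 4. All 15 tested had a higher mean in mimic ankles, with a median log2 difference of 0.96, none without overlap and with standard errors from 0.37 to 0.81. On the narrow side, 16 genes had standard errors from 0.054 to 0.32 and a median log2 difference of 0.18, and the 4 genes without overlap were all among them. The ratio used for the division holds both the spread inside groups and the difference between them. Larger standard errors and differences on the wide side therefore follow in part from the division itself.

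**Figure D4:**
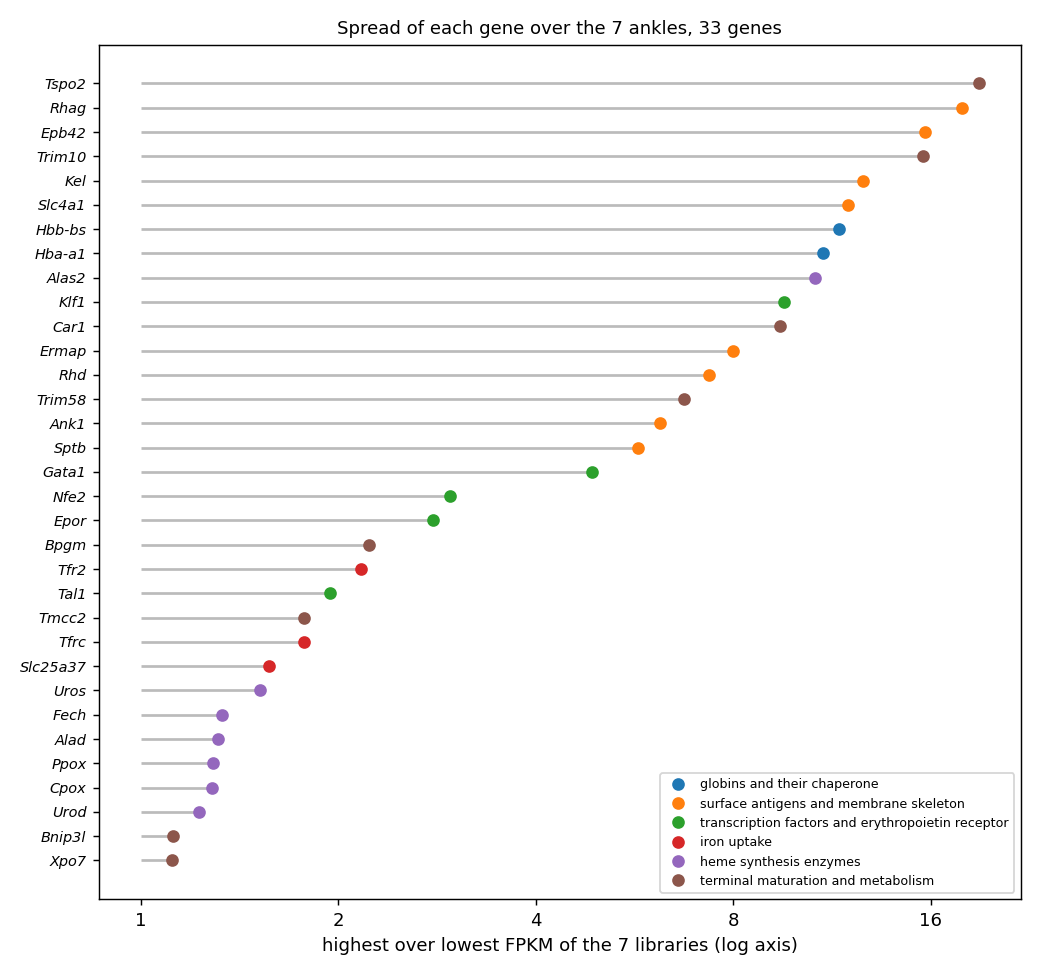
Highest over lowest FPKM of the 7 libraries for 33 genes (1 point a gene, log axis), leaving out Hba-a2, which had no reads in some libraries. Tspo2, at 18.9-fold, lies farthest to the right, and Xpo7, the lowest at 1.115-fold, farthest to the left.

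The same ankles recurred at the top and the bottom. Mimic 1, 2 and 4 were the highest 3 ankles for 17 of the 34 genes, and control 5 and mimic 5 the lowest 2 for 12. Mimic 5 was below control 2 or control 3 for 26 of 34. Shares over all genes are not given for these orders, nor for the wide genes lowest in control 5, so they are not shown to be particular to the set. Control 5 was also lowest for every skeletal muscle marker listed and for every mast cell marker but Kit. Without mimic 5, the groups did not overlap for 17 of 31 genes (54.8%), all higher in mimic ankles, against 8.47% of all genes in that direction and 18.7% in either, and still none passed the test. The log2 difference moved by over 1.5 times, or changed sign, for 20 of 31 genes when some single ankle was left out. Control 5 did so for 13 genes, mimic 4 for 11 and mimic 5 for 8. Without control 5, the median log2 difference of the set was 0.35, and 3 genes in place of 8 had an unadjusted p under 0.05. Leaving out control 2, control 3 or mimic 1 gave 9, 9 and 7 genes without overlap, against 40.7%, 23.3% and 20.8% of all genes. Of these 8, 8 and 7 were higher in mimic ankles, against 18.5%, 9.58% and 8.17% of all genes. Leaving out control 5, mimic 2 or mimic 4 gave 4 genes each, all higher, against 8.46%, 8.97% and 8.99% of all genes in that direction and 18.7%, 18.6% and 21.6% in either.

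A second pattern set globins apart from the surface antigens. The ratio of Hbb-bs to Slc4a1 was 208, 55.7 and 67.6 in control ankles and 53.6, 175, 54.6 and 67.9 in mimic ankles. Control 2 and mimic 2 thus held more globin transcript per Slc4a1 transcript, by level per length, than the other 5 ankles, in both groups alike. Alas2 over Slc4a1 gave 5.08, 1.71 and 1.86 in control and 1.56, 4.45, 1.62 and 1.92 in mimic ankles, high in the same pair. Klf1 over Slc4a1 did not show it, running from 0.232 to 0.367. Rhag over Slc4a1 varied by 1.80-fold over the ankles. Both high ankles bear the replicate number 2, and what that number marks is not given in the labels.

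**Figure D5:**
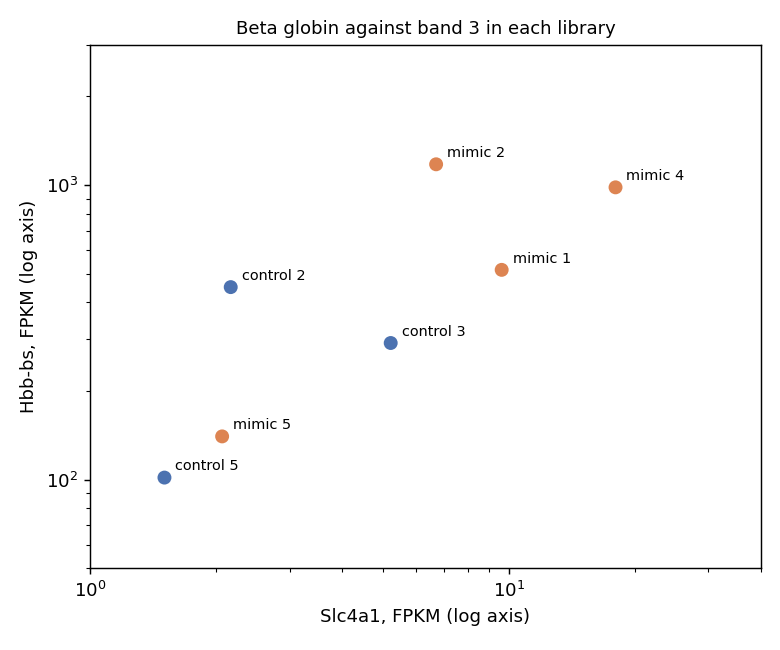
Hbb-bs against Slc4a1 in each library, both in FPKM on log axes, with 1 labelled point a library and colour by group. Control 2 (ratio 208) and mimic 2 (ratio 175) lie above the other 5 libraries, whose ratios run from 53.6 to 67.9.

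Markers of neutrophil and B cell precursors, which also grow in marrow, did not share the order of the globins. The sum of 10 neutrophil precursor markers was 542, 1458 and 554 FPKM in control ankles and 811, 516, 883 and 296 FPKM in mimic ankles. It was highest in control 3 and lowest in mimic 5, and all 10 had a lower mean in mimic ankles. All of them but Lcn2 ranked control 3, mimic 4 and mimic 1 highest. Slc4a1 ranked mimic 4, mimic 1 and mimic 2 highest, then control 3, control 2, mimic 5 and control 5. Of the megakaryocyte and platelet markers, all but Itgb3 and Pf4 had mimic 4, control 3 and mimic 1 highest. High values in mimic 4 and mimic 1 were thus not particular to erythroid genes. The sum of 10 B cell precursor markers was 29.3, 35.1 and 29.6 FPKM and 39.0, 23.4, 34.0 and 71.99 FPKM, highest in mimic 5. Mast cell markers summed to between 87.9 and 175 FPKM in control and between 130 and 168 FPKM in mimic ankles, and macrophage markers to between 875 and 1036 FPKM and between 856 and 1193 FPKM. Osteoblast markers were between 7301 and 7649 FPKM in control and between 8065 and 8672 FPKM in mimic ankles, so those ranges did not overlap, but Col1a1 alone, at 6672 to 7535 FPKM, made up most of each sum. Of the 8 osteoblast markers, Sp7, Alpl, Dmp1, Ibsp and Phex overlapped between the groups, and Col1a1, Bglap and Bglap2 did not. Bglap stood at 91.9, 71.9 and 17.15 FPKM in control ankles and 141, 137, 98.8 and 188 FPKM in mimic ankles. Its log2 difference was 1.49 (SE 0.55, limma adjusted p = 0.240), and that of Bglap2 was 1.32 (SE 0.48, limma adjusted p = 0.241). Control 5 was lowest for both, as for the globins, and also for Sp7, Alpl, Dmp1 and Phex, but not for Ibsp or Col1a1. No gene of these lists passed the test, and their part in the erythroid values was not tested.

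Other genes of these pathways, 60 in 5 lists, showed less of the pattern: 55 were tested, 36 had a higher and 19 a lower mean in mimic ankles, with a median log2 difference of 0.060 and none past the test. At an unadjusted p under 0.05 there were 5, against 17.6% of all genes at that level. Other skeleton and surface genes were higher for 7 of 7 tested (median 0.30), led by Dmtn, dematin, at 0.44 (SE 0.22), and Gypc, a glycophorin, at 0.15 (SE 0.078). Other regulators were higher for 8 of 13. Among them Jak2, the kinase that signals from the erythropoietin receptor, had a log2 difference of -0.34 (SE 0.12, limma adjusted p = 0.236), and Sox6, which acts in late erythroid cells and also in cartilage and muscle, had one of 0.51 (SE 0.23). Without control 2, Jak2 passed the test at -0.49 (limma adjusted p = 0.0418).

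Heme synthesis and mitochondrial iron genes outside the set were higher for 6 of 11 (median 0.034). Abcb10, a mitochondrial transporter of erythroid cells, had a log2 difference of 0.19 (SE 0.12), and Alas1, the housekeeping form of the first enzyme, one of -0.12 (SE 0.10). Heme breakdown and iron handling genes were evenly divided, 7 higher and 7 lower. Steap3, which reduces ferric iron in endosomes, stood at 54.3, 55.0 and 41.4 FPKM in control ankles and 74.7, 60.1, 73.3 and 61.4 FPKM in mimic ankles, without overlap, at a log2 difference of 0.43 (SE 0.13, limma adjusted p = 0.201). Slc11a2, the iron importer that acts next to it, stood at 12.8, 14.2 and 14.9 FPKM in control ankles and 11.2, 11.2, 12 and 12.3 FPKM in mimic ankles, lower without overlap at -0.24 (SE 0.069, limma adjusted p = 0.187). The differences of these neighbours in the handling of endosomal iron thus had opposite signs. Of the 55 genes tested over the 5 lists, 4 did not overlap between the groups, against 15.3% of all genes tested. Other terminal maturation genes were higher for 8 of 10, among them Cat, catalase, at 0.20 (SE 0.11). Hemgn, a nuclear protein of erythroid cells, was picked out after its values were seen. It stood at 0.557, 1.72 and 0.449 FPKM in control ankles and 2.65, 1.84, 5.55 and 0.641 FPKM in mimic ankles. Mimic 4 was highest, control 5 lowest and mimic 5 within the control range.

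The promoters of the set were read for the motifs of the factors among its members, since many of these genes varied together. Promoters of RefSeq genes (GRCm38.p6) run from 250 bases before to 50 bases after the gene start, and 35 of them, from 27 genes of the set, were in the table, among them Hbb-bt, which has a promoter there but no expression value here. The GATA motif searched was GATAA or GATAG with A or T before it, and the CACCC motif, bound by the family of Klf1, was CCNCNCCC, each on both strands. Capitals below mark any match of either motif, and adjoining capitals can be overlapping matches. Hbb-bs (chr7:103827879-103828178, minus strand), Alas2 (chrX:150547167-150547466, plus), Klf1 (chr8:84901732-84902031, plus) and Kel (chr6:41704276-41704575, minus) are shown as genes of the wide side. Urod (chr4:116994364-116994663, minus), a gene of the narrow side without a GATA match, is shown for contrast. Other genes of that side, such as Epor and Cpox, hold GATA matches and are not shown.
Hbb-bs: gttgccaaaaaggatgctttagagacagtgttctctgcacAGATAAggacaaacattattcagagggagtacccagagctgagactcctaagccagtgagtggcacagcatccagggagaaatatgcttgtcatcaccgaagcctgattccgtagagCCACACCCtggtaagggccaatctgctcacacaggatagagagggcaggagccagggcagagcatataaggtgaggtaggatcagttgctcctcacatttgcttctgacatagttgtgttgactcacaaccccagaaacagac
Alas2: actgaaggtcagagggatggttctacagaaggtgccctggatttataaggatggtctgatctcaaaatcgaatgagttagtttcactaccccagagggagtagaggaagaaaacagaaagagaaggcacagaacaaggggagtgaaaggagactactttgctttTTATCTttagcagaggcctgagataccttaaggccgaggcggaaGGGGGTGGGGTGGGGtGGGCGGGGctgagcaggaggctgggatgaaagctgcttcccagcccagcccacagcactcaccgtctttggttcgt
Klf1: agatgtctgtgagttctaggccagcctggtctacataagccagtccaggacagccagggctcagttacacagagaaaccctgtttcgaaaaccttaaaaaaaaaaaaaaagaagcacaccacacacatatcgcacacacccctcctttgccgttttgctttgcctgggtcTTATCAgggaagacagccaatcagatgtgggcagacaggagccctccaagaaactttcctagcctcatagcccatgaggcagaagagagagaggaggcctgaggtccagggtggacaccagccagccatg
Kel: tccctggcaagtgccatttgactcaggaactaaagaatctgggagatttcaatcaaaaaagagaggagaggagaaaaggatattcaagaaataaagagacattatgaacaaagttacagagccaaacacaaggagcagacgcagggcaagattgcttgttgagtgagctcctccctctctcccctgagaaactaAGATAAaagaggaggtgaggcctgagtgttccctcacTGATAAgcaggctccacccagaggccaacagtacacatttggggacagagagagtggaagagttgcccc
Urod: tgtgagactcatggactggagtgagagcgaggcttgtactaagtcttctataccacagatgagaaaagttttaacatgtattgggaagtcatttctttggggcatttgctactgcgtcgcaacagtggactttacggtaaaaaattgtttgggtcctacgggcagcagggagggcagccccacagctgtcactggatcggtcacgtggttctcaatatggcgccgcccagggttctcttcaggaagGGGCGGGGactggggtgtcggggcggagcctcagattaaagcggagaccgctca
The GATA match of Hbb-bs begins at -210 from the start and its CACCC match at -93. Alas2 has a GATA match at -86 with a run of CACCC matches nearer the start, Klf1 a GATA match at -80, and Kel GATA matches at -56 and -19. The Urod window has a CACCC match at -4 and no GATA match.

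Over the set, 19 of 35 promoters (54.3%) held a GATA motif, against 29.8% of all 32851 promoters in the table and 18.9% of the 13185 promoters of genes tested. Among genes on the wide side it was 12 of 14 promoters (85.7%), all but those of Tspo2 and Gata1. Among genes on the narrow side it was 6 of 19 promoters (31.6%). The 14 promoters of the wide side came from 14 genes, but the 19 of the narrow side came from only 11. The 6 narrow promoters with a GATA motif belonged to different genes: Tmcc2, Tal1, Tfr2, Uros, Epor and Cpox. The narrow share was thus lower by promoter than by gene, and the contrast between the sides was smaller by gene. The CACCC motif went the other way, in 6 of 14 promoters (42.9%) on the wide side and 16 of 19 (84.2%) on the narrow side. It was in 67.6% of promoters of genes tested and 49.5% of all promoters. The letters searched are wider than CACCC itself. They also take in GGGCGGGG, the form matched in Urod, Ppox and Bpgm on the narrow side and among the matches of Alas2 on the wide side. The E-box CANNTG, a motif of Tal1, was in 62.9% of the set's promoters and in 64.1% of promoters of genes tested (72.3% of all promoters). These shares are descriptions of letters in a fixed window, with the wide and narrow sides drawn from the data.

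The injected microRNA pairs with messages through its seed. The mature sequence from RefSeq (chr14:115043684-115043706, GRCm38.p6, plus strand) is shown with the seed, bases 2 to 8, in capitals. Sites complementary to it, GCACTTT or CACTTTA, were searched in the longest protein-coding 3′ UTR of each gene (GENCODE M21, GRCm38), and those found in the set are shown with flanking bases and the site in capitals. They lie at chr14:66987510-66987538 (minus strand) for Bnip3l, chr3:14766233-14766261 (minus) for Car1, chr4:119176211-119176239 (minus) for Ermap and chr4:115071499-115071527 (plus) for Tal1.
miR-17-5p: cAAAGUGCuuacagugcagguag
Bnip3l: ggcctgtaagaCACTTTAgagattcctaa
Car1: tctgctctcttCACTTTAaataaaccaat
Ermap: aagaaggcaagGCACTTTcaagtcatacc
Tal1: gggcaagcccaGCACTTTgcgtcagtgtc
With Fech, whose site is not printed, 5 of the 31 genes tested (16.1%) held such a site, against 21.4% of 12612 genes tested with a 3′ UTR. All 5 had a higher mean in mimic ankles, and their median log2 difference was 0.24, against 0.58 for the genes of the set without a site. Over all genes tested the medians with and without a site were both -0.0084. The UTRs of the 34 genes found had a median length of 560 bases, against 1150 over genes tested.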

How the data were processed

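RNA from 7 ankles was sequenced, and each gene and library has a deposited FPKM value, as named per the file headers. Tools in the submitters' processing notes, listed without roles, are STAR 2.5.2b, Subread, featureCounts, bcl2fastq 2.20 and DESeq2 1.14.1, with GRCm38 and mm10 as builds. No source used here gives the strand setting or annotation release, and overlapping or antisense genes cannot be told apart. FPKM times gene length gave whole reads for 100% of values (within 0.01), and the 21 library pairs differed by a chi-square of at least 17.6 per gene. Each was counted as a replicate.

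Groups were compared by limma 3.58.1 under R 4.3.3 (lmFit, eBayes with trend, 2-sided) on log2(FPKM + 0.5) for the 13418 genes whose mean reached 1 FPKM, a scale that understates changes of low genes. Scripts were tested on simulated data. Alternatives were pseudocounts of 0.1 and 1, no filter or a minimum mean of 5 FPKM, quantile normalization, scaling by median of ratios, globin reads left out of totals, limma-voom on recovered reads, the replicate number as a block, and leaving out each library. The set and lists were chosen with earlier results of these data known. Every gene of the set is accounted for, and of each further pathway list the 2 with the smallest p are named, except 1 gene that is not reported here. Tables and figures used Python 3.11.15, pandas 2.3.3 and matplotlib 3.10.9.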

Additional observations from a re-analysis of the deposited data

Results flagged for a closer look

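Over the 34 genes found, the highest and lowest mimic ankles were checked for a gap to the other mimic ankles above Dixon's critical value for 4 samples, which chance exceeds in about 1 in 20 groups. Hba-a2 was listed at 0.2283 FPKM, from 4 reads, in mimic 2 and at 0 in the other mimic ankles, so it rests on a few reads of a copy that cannot be split from Hba-a1. Bnip3l stood at 20.92 FPKM in mimic 5, below the other mimic ankles at 23.1 to 23.4 FPKM.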

How the results depend on the processing

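With all 7 libraries, no gene of the set passed the test under any alternative, and over all genes 1 passed with no filter on low values. Leaving out 1 library at a time gave 0 to 318 genes called over all genes, 0 to 1 in the set and 0 to 1 among the other pathway genes. It gave 4 to 17 genes without overlap, 26 to 28 with a higher mean in mimic ankles, 3 to 16 at an unadjusted p under 0.05 and a median log2 difference of 0.353 to 0.631. Uros in the set, and Jak2 outside it, passed only without control 2. At a mean of at least 5 FPKM, 17 genes of the set were left, 14 with a higher mean, and the median was 0.223. The direction turned only for genes near 0: Slc25a37 was -0.127 with the replicate block and -0.0414 to 0.17 over left-out libraries, and Cpox was 0.0214 with the block and -0.109 to 0.048 over left-out libraries. The cause was not tested.

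Replicate numbers 2 and 5 occur in both groups. Deviations of the same-numbered libraries from their group means correlated at 0.535 for number 2 and -0.435 for number 5 across genes. What a shared number marks is not given in the labels, and these 2 values, of opposite sign, cannot show it. With the replicate block no gene was called, and the median for the set was 0.358. Genes under 1 FPKM, such as Epb42, rest on few reads, which limits them, and the 3 control ankles limit all comparisons.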
